A study of Mus musculus with 2 samples.

Results

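The mouse Hox genes lie in 4 clusters, and the CTCF peaks of these clusters were described in embryonic stem cells and in neural precursor cells. Members were all peaks whose centre fell in 1 of 4 windows on the mm9 genome. The windows were chr6:52000000-52320000 for Hoxa, chr11:95950000-96330000 for Hoxb, chr15:102650000-102970000 for Hoxc and chr2:74390000-74710000 for Hoxd. They held 107 of the 105572 peaks of both lists, 56 of 54151 in the stem cell list and 51 of 51421 in the precursor list.

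CTCF-bound DNA was recovered by chromatin immunoprecipitation and sequenced in 1 library per cell type. The stem cells (ESC) were E14Tg2A cells, also called IB10, a mouse embryonic stem cell line grown with serum, conditioned medium and leukemia inhibitory factor, which keeps them undifferentiated. The neural precursor cells (NPC) were derived from E14 cells in culture and grown with basic FGF and EGF, so both groups trace to 1 line and no animals were compared. No genetic change or drug treatment is given for either group. The files hold peak positions and scores and no expression, so neither cell type could be checked against marker genes, and Hox expression was not measured.

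Hox genes encode homeodomain transcription factors that set position along the body axis, and their order in a cluster matches the order of the body regions in which they act. Hoxb1, for example, acts in the hindbrain, and Hoxa13 and Hoxd13 in the distal limb and the urogenital tract. In stem cells the clusters are known as targets of Polycomb repression. CTCF is a zinc-finger DNA-binding protein that, with cohesin, anchors chromatin loops, and CTCF sites inside Hox clusters are known to separate active from repressed genes. The lists record CTCF occupancy only: loops, histone marks and boundary activity were not measured.

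RefSeq (GRCm38.p6) lists 39 protein-coding Hox genes in the clusters. In Hoxa, with 11 genes, Hoxa13 lies at the high-coordinate end and is followed by Evx1, another homeobox gene. The 10 Hoxb genes run with increasing coordinate from Hoxb13 to Hoxb1, after Ttll6 and before Skap1. Likewise 9 Hoxc genes run from Hoxc13 to Hoxc4 between Calcoco1 and Smug1, and 9 Hoxd genes from Hoxd13 to Hoxd1 between Evx2 and Mtx2. These names give order only, because no mm9 gene annotation was used. A peak is therefore named by its coordinates and not assigned to a gene, exon or intron, and no peak sequence is shown.

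At these window limits Hoxb had the most CTCF peaks per length of the 4 clusters in both lists, and the other windows held more peaks than the median stretch of genome. For NPC this order depended on the limits: with windows shortened by 50 kb at each end Hoxa had 5.45 and Hoxb 5.0 NPC peaks per 100 kb, and with windows extended by 50 kb Hoxc had 4.76 and Hoxb 4.38. For ESC Hoxb was first under both, with 5.71 and 6.25. The Hoxb window of 380 kb held 27 ESC and 20 NPC peaks. Of 6766 genome tiles of that length, 3.0% held at least 27 ESC peaks and 7.04% held at least 20 NPC peaks, with a median of 6 in each list. The Hoxa window of 320 kb held 11 ESC and 12 NPC peaks, reached by 23.1% and 17.8% of 8036 tiles. In Hoxc there were 9 ESC and 9 NPC peaks, reached by 30.7% and 29.3% of tiles. In Hoxd there were 9 ESC and 10 NPC peaks, reached by 30.7% and 24.9%, where the median tile of 320 kb held 5. These are descriptions of 2 libraries, and with 1 library per cell type no test between cell types was made.

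**Figure D1:**
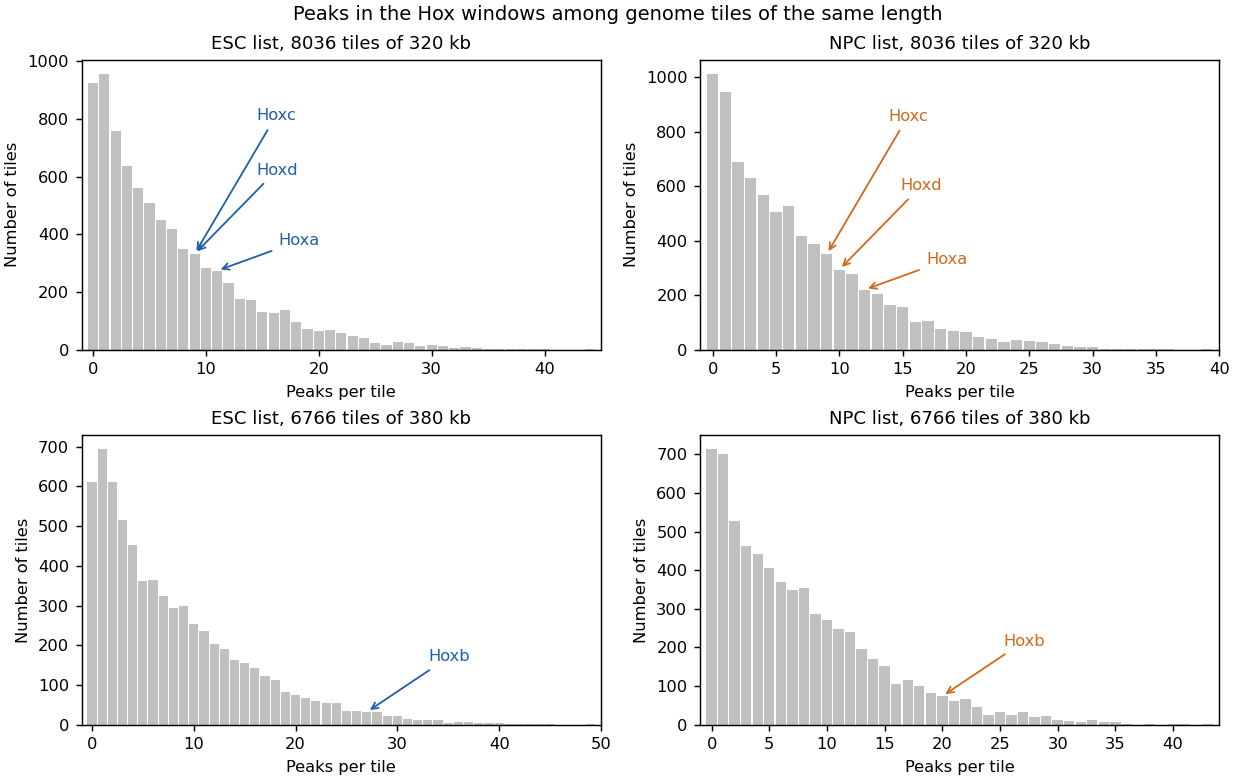
Peaks per tile (x axis, count) against the number of genome tiles (y axis) for tiles of 320 kb (upper panels) and 380 kb (lower panels), with ESC on the left and NPC on the right; arrows mark the Hox windows. Hoxb lies in the upper part of both distributions, at 27 ESC peaks (reached by 3.0% of tiles) and 20 NPC peaks (7.04%), and the other windows lie at 9 to 12.

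Peak strength is given as a percentile, the rank of a peak's score among all peaks of its own list, so that 50 is the middle of the list and 100 the top. Scores are those the authors deposited. The files do not define them, and scores were not compared between lists. Hox peaks were spread over most of this range. ESC members had a median percentile of 55.6, with 36 of 56 above the middle of their list, and NPC members 67.3, with 34 of 51 above it. Above the 90th percentile, which 10.0% of each list exceeds by definition, were 5 ESC members (8.93%, all in Hoxb) and 6 NPC members (11.8%, 4 in Hoxb and 2 in Hoxd). No member reached the score of 3100 at which 173 ESC and 208 NPC peaks piled up; the highest were 2114 in ESC and 1844 in NPC.

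Most Hox sites were called in both cell types. A peak was counted as shared where its interval and one in the other list had at least 1 bp in common. All 42 shared ESC members matched the 42 shared NPC members 1-to-1, and the median offset between their centres was 34 bp; over all 39595 such pairs of the lists it was 32 bp. The remaining 14 ESC members (25.0%, exact 95% interval 14.4 to 38.4) and 9 NPC members (17.6%, 8.40 to 30.9) were unshared. In the whole lists 26.0% of ESC and 21.4% of NPC peaks were unshared, so the Hox shares were near the background. These intervals reflect only the number of peaks counted.

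**Figure D2:**
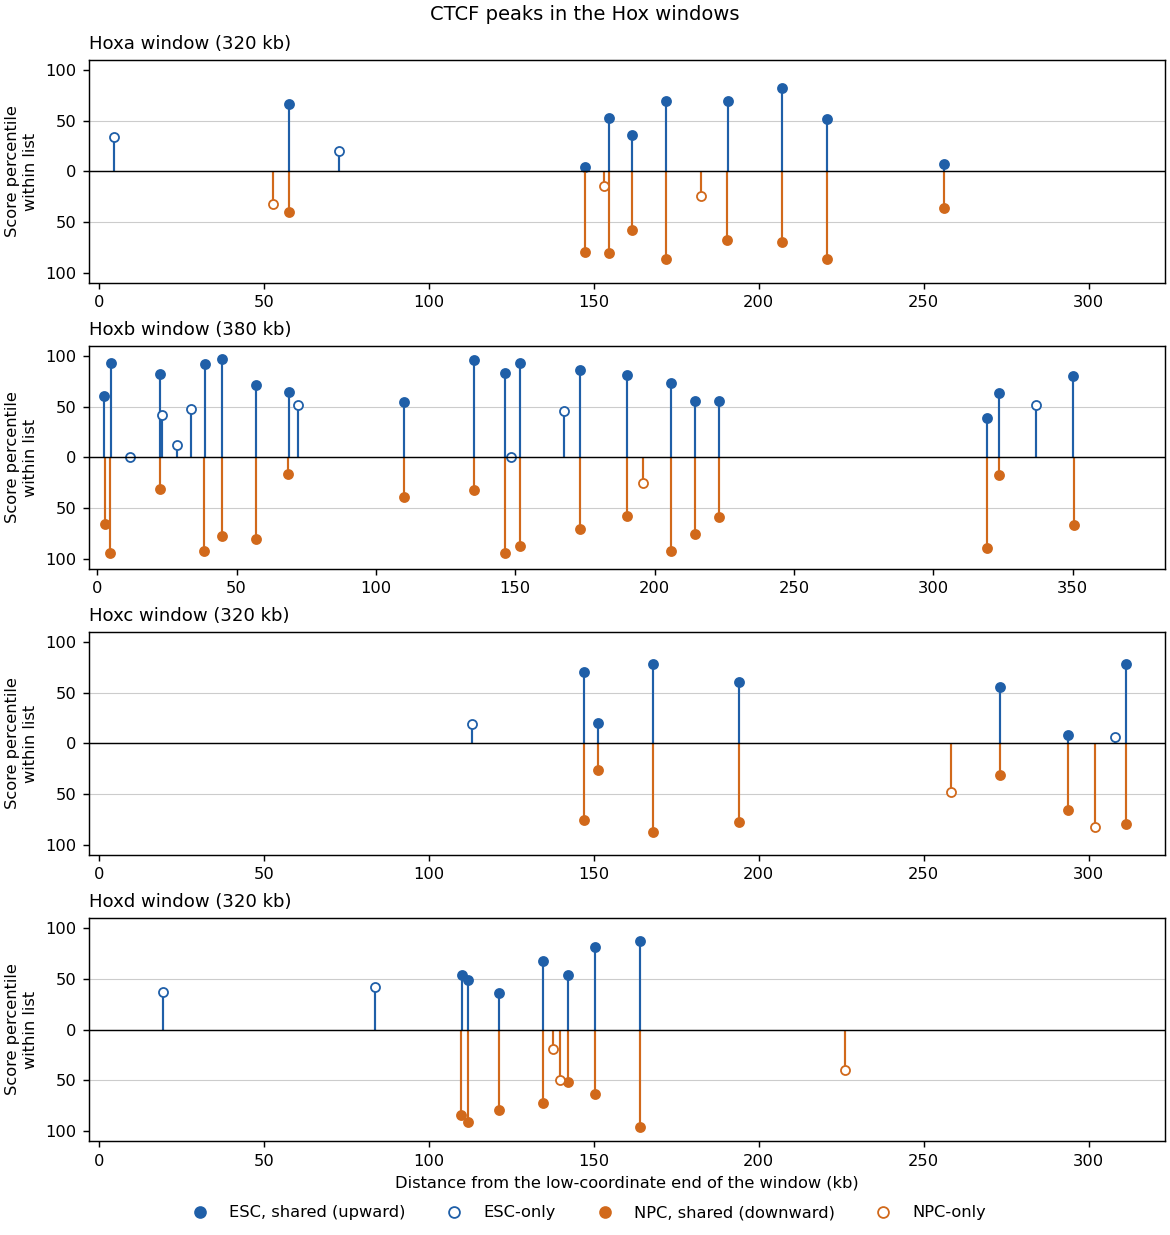
Peaks along each window: x axis, distance from the low-coordinate end of the window (kb); y axis, score percentile within the list, drawn upward for ESC and downward for NPC. Filled circles are shared and open circles unshared peaks; shared sites fill most of the Hoxb window, while in Hoxd they are packed into 55.0 kb of 320 kb.

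Hoxa held 9 shared sites, and NPC ranked higher at 6 of them (66.7%), against 47.1% of all 1-to-1 pairs in the lists and 46.4% on the rest of chromosome 6. At chr6:52147287-52147621 the ESC peak was near the bottom of its list, at percentile 4.87 (score 116). The NPC peak there was at 79.9 (score 994), a difference of 75.0 points and the largest of the 42 Hox pairs. The next 3 shared sites toward higher coordinates also ranked higher in NPC. They stood at 52.6 in ESC and 80.2 in NPC (ESC peak chr6:52154270-52155009), at 36.1 and 57.8 (chr6:52161349-52162022), and at 69.1 and 86.2 (chr6:52171488-52172222). These 4 neighbouring sites thus had an NPC excess of 17.1 to 75.0 points.

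The order was not uniform across Hoxa. At chr6:52190284-52190897 the lists were close, at 69.9 in ESC and 67.3 in NPC. The strongest ESC peak of the window, chr6:52206681-52207462, was at 82.8 (score 1244) and its NPC partner at 69.5. The strongest NPC peak, chr6:52220343-52220964, was at 86.3 (score 1225), against 51.9 in ESC. The last site, at chr6:52255784-52256243, was weak in both lists, at 7.64 in ESC and 35.7 in NPC. On the low-coordinate side, chr6:52057257-52057865 stood at 67.0 in ESC and 40.3 in NPC, the largest ESC excess of the window at 26.7 points.

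The unshared Hoxa peaks were weak. The 2 ESC-only peaks, chr6:52004251-52004813 and chr6:52072605-52073004, were at percentiles 33.7 and 20.7. The 3 NPC-only peaks, chr6:52052658-52052945, chr6:52153064-52153379 and chr6:52182435-52182826, were at 32.4, 14.6 and 24.2. All 5 lay below the middle of their list, as did most unshared peaks of the whole lists. There, 1342 of 14089 unshared ESC peaks and 1289 of 10984 unshared NPC peaks lay above the middle. In Hoxa, the NPC-only peak at 52153064 ended 890 bp before an ESC peak. Above the last shared site no peak of either list lay within 108 kb.

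Hoxb held 19 shared sites, more than any other cluster, and a few were strong in both cell types. The site at chr11:95954428-95955191 was at 93.4 in ESC and 93.9 in NPC. Close by, chr11:95988282-95988853 was at 92.0 and 92.6. Further along, chr11:96101422-96101946 was at 93.4 and 87.6. At these 3 sites the lists differed by at most 5.75 points. The strongest NPC peak of the window, chr11:96096160-96096764, was at 94.3 (score 1675), with its ESC partner at 83.8.

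Other Hoxb sites ranked higher in ESC than in NPC. The peak at chr11:96084966-96085707 was at 96.7 in ESC (score 1991) and 32.6 in NPC (score 227), which at 64.1 points was the largest ESC excess in any Hox window. At chr11:95972012-95972797 the values were 82.7 in ESC and 30.8 in NPC. At chr11:96018376-96019068 they were 64.4 and 16.0, and at chr11:96273107-96273803 they were 63.6 and 17.4. The strongest ESC peak, chr11:95994599-95995319, was at 97.5 (score 2114) and 78.0 in NPC. A single site went as far the other way: chr11:96268896-96269526 was at 38.5 in ESC and 89.3 in NPC. Its neighbour on the map is the site at 96273107, so adjacent sites had opposite orders.

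In Hoxb the unshared peaks numbered 8 of 27 in the ESC list and 1 of 20 in the NPC list. The ESC-only peaks at chr11:96021824-96022266 and chr11:96286412-96287005 were at 51.8 and 51.5, just above the middle of the list. Below it were chr11:95983429-95984195 at 47.7, chr11:96117250-96117870 at 45.8 and chr11:95972985-95973529 at 41.5. Low in the list were chr11:95978297-95978746 at 12.6, chr11:96098422-96098700 at 0.735 and chr11:95961677-95961974 at 0.344. The NPC-only peak, chr11:96145762-96146227, was at 25.5. The ESC-only peak at 95972985 lay 341 bp from the NPC peak of its neighbour at 95972012, so NPC had 1 weak peak where ESC had a pair with centres 853 bp apart.

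The ESC-only share of Hoxb was 29.6% (13.8 to 50.2) and that of the rest of chromosome 11 was 27.2%. From the scores of these peaks, taking the unshared rate of each of 10 equal score bins of the ESC list, 15.1% would be unshared, which lies inside the interval. The NPC-only share was 5.0% (0.127 to 24.9), against 19.9% on the rest of chromosome 11 and 13.7% from the scores. This low share depended on the overlap rule: with 50% reciprocal overlap 6 of 20 NPC peaks (30.0%) and 13 of 27 ESC peaks (48.1%) were unshared, against 28.1% of all NPC and 31.7% of all ESC peaks. The Hoxb peaks also left a gap: no peak of either list lay between 96173373 and 96268895, a stretch of 95.5 kb. Of all ESC gaps between neighbouring peaks, 11.7% were at least as long. With both lists pooled it was 5.66% of gaps. Pooled gaps include those between the ESC and NPC peaks of a shared site, which lowers that share.

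Hoxc held 7 shared sites, and, like the rest of chromosome 15, they mostly ranked higher in NPC. NPC ranked higher at 6 of the 7. On the rest of chromosome 15, 68.6% of 1827 pairs ranked higher in NPC, against 47.1% of all pairs in the lists. The median NPC minus ESC difference was 5.45 points in Hoxc (−23.8 to 57.4, here the whole range) and 8.37 (7.39 to 9.14) on the rest of the chromosome. With percentiles taken within chromosome 15 only, the Hoxc median was −0.23 and 3 of 7 sites ranked higher in NPC.

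Most single Hoxc sites differed little. The strongest in both lists, chr15:102817657-102818333, was at 78.6 in ESC (score 1124) and 87.3 in NPC (score 1264). At chr15:102960964-102961766 the values were 78.1 in ESC and 79.4 in NPC, and at chr15:102796666-102797371 they were 70.6 and 75.2. The site at chr15:102843773-102844444 was at 61.1 and 78.0. At chr15:102801151-102801522 both peaks were weak, at 20.6 and 26.0.

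A pair of neighbouring Hoxc sites went far in opposite directions. The site at chr15:102943463-102943942 was at 8.69 in ESC (score 131) and 66.1 in NPC (score 647). Next to it, chr15:102922811-102923316 was at 55.4 in ESC and 31.6 in NPC. Between the former and the last shared site lay the strongest unshared member of all 4 windows, the NPC-only peak chr15:102951826-102952301. It was at percentile 82.7 of the NPC list (score 1088), and the nearest ESC peak was 5396 bp away. The other NPC-only peak, chr15:102908035-102908376, was at 47.6. Both ESC-only peaks were weak, with chr15:102762858-102763218 at 19.7 and chr15:102957698-102958099 at 6.49.

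Against the rest of chromosome 15, Hoxc had 22.2% (2.81 to 60.0) of its 9 ESC peaks unshared and the rest had 15.9% (14.4 to 17.5). For NPC peaks the share was also 22.2% (2.81 to 60.0), against 30.3% (28.6 to 32.1) on the rest. The Hoxc intervals contained the chromosome's values and were too wide to separate them. Peaks were absent from the low-coordinate part of the window: the 124 kb from 102638390, just below the limit, to 102762857 held none of either list.

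The shared sites of Hoxd took up the shortest span of the 4 clusters, with all 7 between 74499563 and 74554558 on chromosome 2. This span of 55.0 kb was 17.2% of the window, whereas shared sites spanned 199 kb in Hoxa, 348 kb in Hoxb and 165 kb in Hoxc. These spans count only sites inside the windows. Within 50 kb outside the limits, further shared sites lay next to Hoxa, Hoxb and Hoxc, and no peak lay next to Hoxd. Neighbouring Hoxd peaks were a median of 11.4 kb apart in ESC and 8.14 kb in NPC, against 17.9 and 19.6 kb over the lists. By this spacing Hoxb was closer in ESC, at 8.50 kb, and wider in NPC, at 11.5 kb. The ESC order depended on weak peaks. Among peaks in the upper 50% by score it reversed, with 13253.5 bp in Hoxb and 10888.2 bp in Hoxd. The NPC order held, with 15830.5 and 8766.25 bp. NPC ranked higher at 5 of the 7 sites (71.4%), against 47.1% of all pairs and 46.4% on the rest of chromosome 2.

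The first 3 Hoxd sites, at the end that in gene order is nearer Hoxd13, were middling in ESC and strong in NPC. The site at chr2:74499589-74500429 was at 53.6 in ESC (score 582) and 84.7 in NPC (score 1162). At chr2:74501475-74502053 the values were 49.0 (score 502) and 90.9 (score 1445), and at chr2:74510989-74511548 they were 35.7 (score 320) and 79.2 (score 972). The NPC excess was 31.0, 41.9 and 43.5 points at these neighbours. At the next sites, chr2:74524215-74524864 was at 67.8 in ESC and 72.3 in NPC, and chr2:74531989-74532625 at 54.3 and 51.9. The largest ESC excess of the window was at chr2:74540035-74540831, with 81.6 in ESC and 63.6 in NPC. The last site, chr2:74553609-74554558, was the strongest in both lists, at 87.1 (score 1391) and 96.0 (score 1844).

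Unshared Hoxd peaks lay in different places in the lists. The 2 ESC-only peaks, chr2:74409338-74409905 at 37.3 and chr2:74473366-74473929 at 42.3, lay below the shared span. Of the 3 NPC-only peaks, chr2:74527416-74527852 at 19.4 and chr2:74529646-74530047 at 49.8 lay inside it, between shared sites. The third, chr2:74615939-74616264 at 39.7, stood 61.4 kb from any ESC peak. Above it no peak of either list was called for 186 kb, and 2.17% of gaps between neighbouring peaks of the pooled lists were at least that long. Here too the pooled gaps include those between the ESC and NPC peaks of a shared site, which lowers the share.

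The clusters were then set side by side by their shared sites. The median NPC minus ESC difference was 21.6 points in Hoxa (−13.3 to 34.4, 9 pairs), −5.75 in Hoxb (−24.0 to 9.15, 19 pairs), 5.45 in Hoxc and 8.92 in Hoxd (−18.1 to 43.5, the range of 7 pairs). Each interval included 0. These intervals reflect only the sites counted in 1 library per cell type and are no test between cell types. On the rest of chromosomes 6, 11, 15 and 2 the medians were −1.75, −1.52, 8.37 and −1.15 points. Over the 4 windows NPC ranked higher at 26 of 42 pairs (61.9%), and at 20 of 35 (57.1%) without Hoxc, against 47.1% of all pairs. With percentiles taken within each chromosome it was 23 of 42. The median over the 42 pairs was 4.54 points, with an interval of −2.53 to 10.5 that also included 0, against −1.18 over all pairs.

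Large differences occurred in both directions. An NPC excess of at least 20 points was found at 10 of the 42 pairs (23.8%), 5 of them in Hoxa, 3 in Hoxd and 1 each in Hoxb and Hoxc. Over all pairs of the lists it was found at 16.3%. An ESC excess of at least 20 points was found at 7 pairs (16.7%), 5 of them in Hoxb, 1 in Hoxa and 1 in Hoxc, against 21.2% over all pairs. A peak near the bottom of the ESC list has little room for a partner of lower rank, so each NPC percentile was also set against the median NPC percentile of all pairs in the same of 10 ESC score bins. On that scale the median excess was 17.7 points in Hoxa, −1.64 in Hoxb, 9.04 in Hoxc and 17.4 in Hoxd. On the rest of chromosomes 6, 11, 15 and 2 it was −0.793, 0.120, 9.68 and 0.646 points. Hoxc was thus near the rest of its chromosome.

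**Figure D3:**
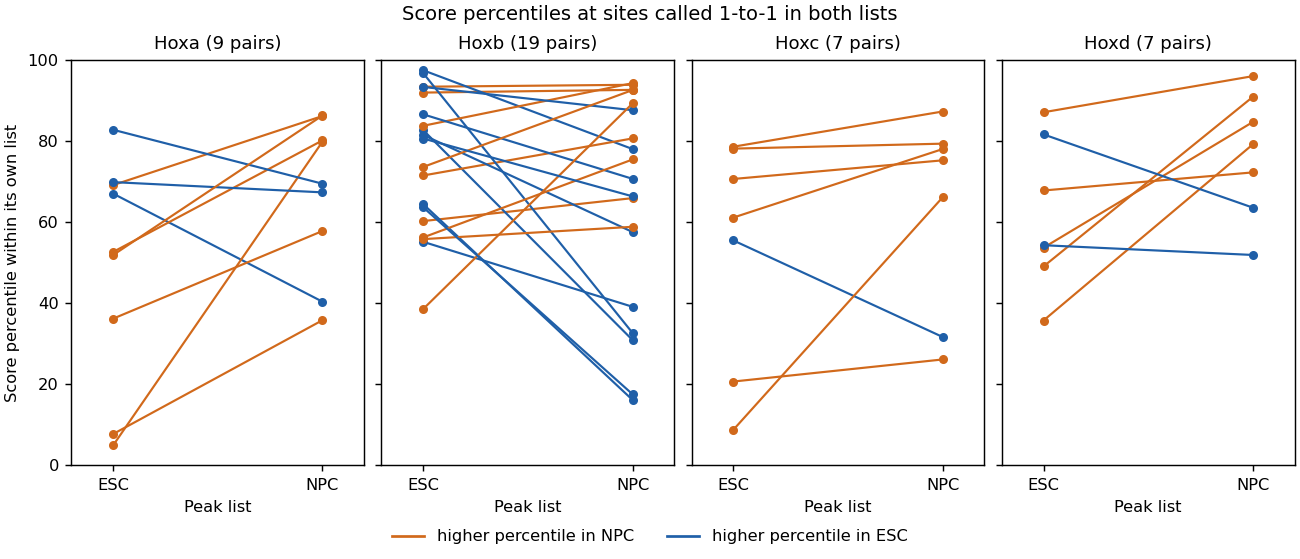
Score percentile within its own list (y axis) of each 1-to-1 shared site in ESC and NPC (x axis), by cluster; each line is 1 site, coloured by the list in which it ranked higher. Lines mostly go up from ESC to NPC in Hoxa (6 of 9), Hoxc (6 of 7) and Hoxd (5 of 7), and are split in Hoxb (9 of 19).

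Peak width, which the choice of members did not use, also differed between sites. ESC peaks were wider than NPC peaks over the lists, with a median of 573 bp against 433 bp, and NPC peaks were wider at 12.5% of all pairs. In the Hox windows NPC peaks were wider at 8 of 42 pairs (19.0%), 4 of them in Hoxa. At 7 of these 8 the NPC peak also had the higher percentile. Over all pairs this was the case at 4496 of 4935.

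Unshared shares by cluster did not stand apart from their chromosomes. For ESC peaks they were 18.2% (2.28 to 51.8) in Hoxa and 22.2% (2.81 to 60.0) in Hoxd, against 25.1% and 25.0% on the rest of chromosomes 6 and 2. For NPC peaks they were 25.0% (5.49 to 57.2) in Hoxa and 30.0% (6.67 to 65.2) in Hoxd, against 22.0% and 21.6%. From the scores, the ESC shares would be 27.5% in Hoxa, 29.9% in Hoxc and 17.8% in Hoxd. The NPC shares would be 16.5%, 11.9% and 12.5%, each below the share found. All these values lay inside the windows' intervals. With 9 to 27 peaks per window, differences of this size were not detectable.

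**Figure D4:**
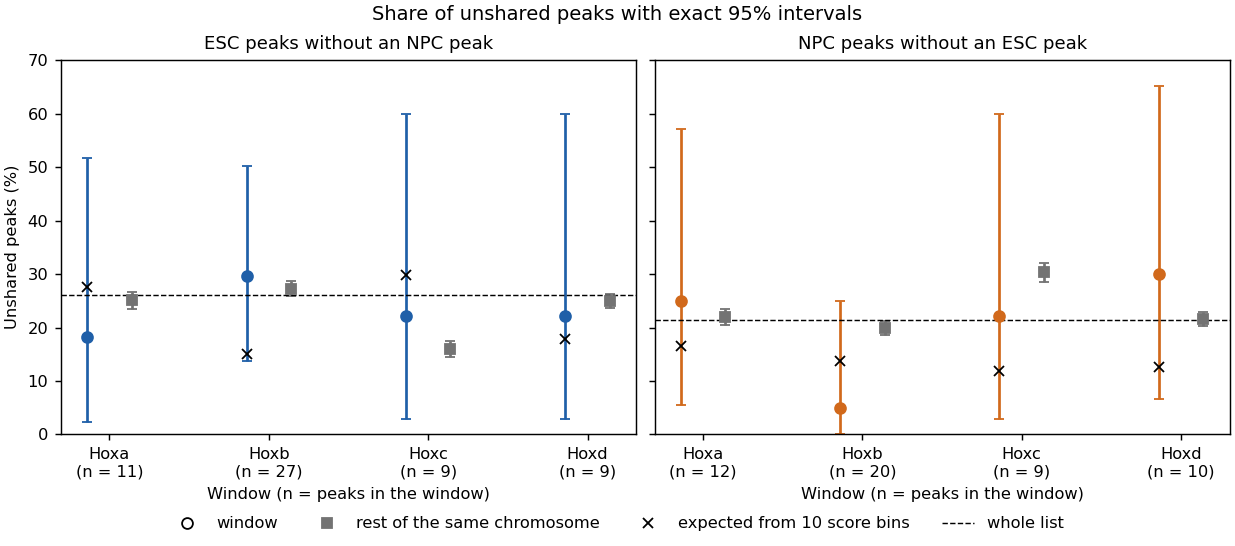
Unshared peaks (y axis, percent) of ESC (left) and NPC (right) by window (x axis), with exact 95% intervals; squares are the rest of the same chromosome, crosses the share expected from 10 score bins and the dashed line the whole list. Every interval drawn for a window includes the value of the rest of its chromosome; the closest case is the NPC share of Hoxb, 5.0% (0.127 to 24.9) against 19.9%.

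The sites nearest to the window limits were as follows. Just outside the low limit of Hoxb, at 0.541 kb, lay a shared site at 58.2 in ESC and 8.54 in NPC, and the first site inside, at 2.60 kb, was at 60.2 and 65.9. Beyond the high limit of Hoxc, at 26.1 kb, a shared site stood at 75.9 in ESC and 90.6 in NPC, and the last site inside was at 78.1 and 79.4. Below Hoxa the nearest outside site, at 4.22 kb, was at 74.8 in ESC and 29.8 in NPC. Around Hoxd the nearest outside peaks were over 90 kb away on both sides.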

How the data were processed

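The authors deposited 1 list of CTCF peaks per library, made with MACS per the file headers. Libraries were sequenced on SOLiD per the labels' protocols. The build is mm9 per the submitters' processing notes. For the MACS version and threshold, the aligner and the control, nothing is given in the sources used here. Both track names end in CONTROL, which the files do not explain. Each peak carries a deposited score, at least 100.0 in both lists, whose definition is not stated; it was used only for ranks within a list. No read counts are given, so the depth behind each list is unknown.

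Coordinates were written 1-based. Sharing was an overlap of at least 1 bp, shares carry exact Clopper-Pearson 95% intervals, and medians carry distribution-free intervals of at least 95% from order statistics (over 7 pairs, the range). Genome tiles of the windows' lengths ran from the first to the last peak of each chromosome. Alternatives were other overlap rules, score cuts, equal list lengths, window limits moved by 50 kb and percentiles within chromosomes. The code for overlaps was tested on simulated data. Python 3.11.15, numpy 2.4.6, pandas 2.3.3, scipy 1.17.1 and matplotlib 3.10.9 were used.

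The windows, lists and comparisons were chosen with earlier results of these data known. Named peaks were all unshared peaks, the 3 strongest of each list and window, the pairs with the largest difference each way, and peaks beside limits and gaps; the other shared sites were named after their values were seen. Gene order came from RefSeq (GRCm38.p6), in which all 39 Hox genes were found by symbol.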

Additional observations from a re-analysis of the deposited data

How the results depend on the processing

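No paired analysis was possible because each cell type has 1 library, and for the same reason none was left out. Among peaks scoring in the upper 50% of their list, the unshared share of ESC members fell to 5.56% over the 4 windows. In the whole ESC list it fell to 4.96%. By window it was 0 of 6, 5 and 5 ESC peaks in Hoxa, Hoxc and Hoxd, and 10.0% in Hoxb. The share of NPC members fell to 2.94%, against 5.01% in the whole NPC list. By window it was 0 of 7, 14 and 7 NPC peaks in Hoxa, Hoxb and Hoxd, and 16.7% in Hoxc. This setting leaves out the weak peaks, and the fall was seen in the whole lists too. With a 50% reciprocal overlap both lists had more unshared members. Of NPC peaks these were 31.4% over the 4 windows (30.0% in Hoxb, 41.7% in Hoxa), against 28.1% in the whole list. Of ESC peaks they were 37.5% (48.1% in Hoxb, 36.4% in Hoxa), against 31.7%. A pair cannot meet this rule where 1 peak is under 50% as wide as the other. In each Hox pair lost the NPC peak was that narrow. Why the widths differ was not tested. Of the unshared shares, 59 computed under alternatives stayed inside the intervals given above. The upper 50% by score gave densities of 1.88 and 2.19 peaks per 100 kb in Hoxa (ESC and NPC, against 3.44 and 3.75), and of 1.56 in Hoxc and 1.56 in Hoxd for ESC (against 2.81 and 2.81). With windows extended by 50 kb, Hoxc had 4.52 ESC and 4.76 NPC peaks per 100 kb, against 2.81 in each; Hoxb then had 6.25 and 4.38. No interval is given here for the spacings. With the upper 50% by score, median ESC spacing went from 8504 to 13253.5 bp in Hoxb and from 18648.8 to 32207.5 bp in Hoxc. It went from 15862.2 to 17215.5 bp in Hoxa and from 11387.8 to 10888.2 bp in Hoxd. Median percentiles and percentile differences stayed inside their intervals under all alternatives run, but those intervals are wide. The median difference of Hoxb changed sign with 50% reciprocal overlap (1.86 over 14 pairs), and that of Hoxc with percentiles within chromosome 15. In Hoxb 9 pairs ranked higher in NPC under both overlap rules, of 19 and of 14 pairs. The Hoxb pairs lost were thus all higher in ESC, so that sign change is no check of the direction. Over the 4 windows, percentiles within each chromosome gave a median of 1.11 points, with 23 of 42 pairs higher in NPC. With the upper 50% by score, the Hoxc share minus that of the rest of chromosome 15 also changed sign, to −1.70 points for ESC and 8.36 for NPC, against 6.31 and −8.12 with the lists whole. The comparison with the NPC percentile expected from ESC scores was chosen after seeing the data.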

Other observations

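The 50 kb beyond each window limit, looked at after the data had been seen, held most sites next to Hoxc. Beyond the high-coordinate limit of Hoxc, the side that in gene order follows Hoxc4, there were 8 ESC and 8 NPC peaks, all shared 1-to-1. NPC ranked higher at all 8, by 12.8 to 86.8 points with a median of 29.4. The strongest was the NPC peak chr15:103012262-103013157 at percentile 99.7 (score 3100), with its ESC partner at 71.5 (score 949). On the rest of chromosome 15 from 90 Mb on, 64.2% of 438 pairs ranked higher in NPC, with a median of 6.58 points. Beyond the low limit of Hoxc, 2 pairs were strong in both lists, the stronger at 96.6 in ESC and 97.0 in NPC.

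Below Hoxa the order was the opposite. All 3 pairs of that flank ranked higher in ESC, but the least different pair was nearly level, at 30.3 in ESC and 30.1 in NPC. At chr6:51985932-51986740 the ESC peak was at 88.9 and the NPC peak at 2.57, a difference of 86.3 points. Within Hoxa, 6 of 9 pairs ranked higher in NPC. These flanks were not tested against other regions, and the number of sites is small. The 50 kb beyond each limit of Hoxd held no peak of either list.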
